A study of Mus musculus with 1298 samples.

Results

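Tead, Vgll, Yap1 and Wwtr1 genes were followed through the Pax7 lineage of the mouse embryo. The set has 9 members, which are Tead1, Tead2, Tead3, Tead4, Vgll2, Vgll3, Vgll4, Yap1 and Wwtr1. They were taken by gene symbol from the count tables, and all 9 were found in each table, among 17634 genes on the 10× platform, 22894 on Smart-seq2 and 22938 in the bulk libraries (26722 genes in any of them). The rule that chose them uses symbols and no measured value, and earlier results of these data were known. Lists of 25 Hippo regulators and 22 genes of a Yap/Taz target signature were followed beside them. These share 3 genes, and all members of both lists were found in each table.

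The cells came from Pax7-CreER:R26R-stop-EYFP embryos, in which Cre is driven from the Pax7 locus and 1 dose of tamoxifen (75 µg/g body weight, given to the mother at E9.5) marks Pax7-expressing cells and their progeny with YFP for good. Every group, the cultured and the bulk libraries included, carried this label and came from sorted YFP+ cells. Single cells were sorted on 3 days, E12.5 and then E14.5 and E16.5, on 10× with 1 library a day and on Smart-seq2, which reads full-length transcripts of cells in wells. The 18 bulk libraries were 6 of Pdgfra+ cells from E14.5 cultured in ADM (an adipogenic medium), 6 of such cells cultured in DMEM, 4 of Pdgfra+ cells sorted fresh at E16.5 and 2 of Pdgfra-/Cd36+ cells sorted fresh at E16.5. Each Pdgfra+ state held both Thy1+ and Thy1- sorts, which could not be told apart by the names of the columns, so that a state pools both. Embryos were pooled for sorting, cultured libraries are wells run side by side and fresh libraries are technical duplicates. Bulk p-values thus measure the spread between these libraries and not that between animals. In the Pdgfra+ states this spread holds the technical spread and the difference between the Thy1 sorts together. The days are those of the labels. In one place the text of the study gives the day of the cultured cells for the fresh Thy1- sort as well, so the day of those fresh libraries is in doubt.

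Of 3916 deposited cells 3852 were kept, 2921 on 10× (median 2681 UMIs per cell, unique molecular identifiers that each count 1 captured transcript) and 931 on Smart-seq2 (median 765610 expected counts). On 10× the median depth was greatest on the middle day (5930 UMIs), with 2185 UMIs on the first and 1607.5 on the last, and 3 barcodes were shared between libraries. Clustering, from which the members and both lists were left out, gave 9 named classes. They were early progenitor-like (EP-like, 10.4% of the cells kept), late progenitor-like (LP-like, 19.2%), early muscle-like (EM-like, 18.1%), late muscle-like (LM-like, 6.18%), dermal fibroblast-like (DF-like, 15.5%), brown adipocyte-like (BA-like, 4.52%), neuron-like (N-like, 18.6%), neural progenitor-like (NP-like, 5.56%) and pericyte-like (PE-like, 1.48%) cells. A cluster of 20 cells led by cartilage genes stayed unnamed. Classes were summed within a pool, which is 1 platform on 1 day, and a sum needed at least 20 cells. On 10× the EM-like class drew mostly on a different cluster on each day. The LP-like, DF-like and N-like classes also drew mostly on different clusters on different days there. In these classes day and cluster thus go together. Levels are counts-per-million values (CPM), scaled to the total of the class in its pool, and the test was the quasi-likelihood test of edgeR, adjusted over all genes tested by Benjamini and Hochberg, where "rose", "fell", "higher" and "lower" as calls mean an adjusted p under 0.05.

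Tead proteins are transcription factors that bind the MCAT element, and on their own they activate little. Yap1 and Wwtr1 (the gene of Taz) are coactivators that the kinases of the Hippo pathway keep out of the nucleus, and once inside they bind Tead proteins and switch on growth and matrix genes. Vgll proteins also bind Tead proteins, on the surface that Yap1 and Taz use. Vgll2 and Vgll3 are known from skeletal muscle, where MCAT elements sit in many muscle promoters, whereas Vgll4 is known as a competitor of Yap1.

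All members are protein coding genes (GENCODE vM21, GRCm38). Tead1 and Tead2 lie on chromosome 7 (112679318 to 112906807 and 45215753 to 45233644, both on the + strand), Tead3 on chromosome 17 (28331671 to 28350817, - strand) and Tead4 on chromosome 6 (128224288 to 128300823, - strand). Vgll4 also lies on chromosome 6 (114860628 to 114969994, - strand), Vgll2 on chromosome 10 (52022502 to 52028471, + strand) and Vgll3 on chromosome 16 (65815257 to 65866368, + strand). Yap1 lies on chromosome 9 (7931999 to 8004596, - strand) and Wwtr1 on chromosome 3 (57455649 to 57575910, - strand). The 250 bases before a RefSeq transcription start (GRCm38.p6) were available for 7 members in 10 windows, and not for Tead1 and Tead4. The following are shown for Vgll2, Vgll3, Wwtr1 and Tead2, on which many of the results that follow turn, 5′ to 3′ on the strand of the gene, with MCAT elements (CATTCC, or GGAATG when read on the other strand) in capitals. Vgll2 is shown from chr10:52022252-52022501 (+ strand), Vgll3 from chr16:65814939-65815188 (+ strand), Wwtr1 from chr3:57575911-57576160 (- strand) and Tead2 from chr7:45215542-45215791 (+ strand).
Vgll2 promoter: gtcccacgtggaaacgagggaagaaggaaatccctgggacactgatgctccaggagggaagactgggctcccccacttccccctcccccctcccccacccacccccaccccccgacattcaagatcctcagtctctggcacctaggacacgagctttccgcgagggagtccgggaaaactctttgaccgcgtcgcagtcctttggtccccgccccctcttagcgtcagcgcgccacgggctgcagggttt
Vgll3 promoter: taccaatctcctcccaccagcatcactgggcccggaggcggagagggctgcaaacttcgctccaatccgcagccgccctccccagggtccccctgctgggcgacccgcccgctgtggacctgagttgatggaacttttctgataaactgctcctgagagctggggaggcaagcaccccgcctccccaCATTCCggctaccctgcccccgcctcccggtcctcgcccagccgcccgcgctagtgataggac
Wwtr1 promoter: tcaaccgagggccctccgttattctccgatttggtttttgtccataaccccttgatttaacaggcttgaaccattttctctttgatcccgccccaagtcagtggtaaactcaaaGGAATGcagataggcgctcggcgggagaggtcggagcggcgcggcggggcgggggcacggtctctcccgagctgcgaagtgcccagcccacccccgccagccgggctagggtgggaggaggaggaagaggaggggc
Tead2 promoter: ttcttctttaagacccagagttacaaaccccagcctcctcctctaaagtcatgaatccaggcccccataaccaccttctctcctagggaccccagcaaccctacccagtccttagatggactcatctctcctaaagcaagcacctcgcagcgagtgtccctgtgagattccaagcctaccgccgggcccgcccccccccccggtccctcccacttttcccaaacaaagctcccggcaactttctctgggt

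The MCAT element stood at -63 from the start in Vgll3 and at -136 in Wwtr1, and no copy was found in the windows of Vgll2 and Tead2. Of the 7 members with a window 5 held at least 1 copy (Tead3, Vgll3, Vgll4, Yap1 and Wwtr1), in 7 of their windows. The windows of Wwtr1 overlap and show the same copy, and Tead3 has several starts, so windows are not separate. Of 32851 windows of all genes 12.64% held a copy, and the shares were not tested against each other. The E-box CAGCTG, a sequence read alike on both strands that Myod1 binds, was in none of the 10 windows and in 13% of all. A match describes letters in this window and not binding.

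The members fell into a muscle group and a widely expressed group. Vgll2, Vgll3 and Tead4 were high in EM-like or LM-like cells and low elsewhere, while Tead1, Tead2, Vgll4, Yap1 and Wwtr1 were found in every mesenchymal and muscle class with a pool. Per kilobase of exon in Smart-seq2 cells, which allows genes to be compared, the leading member was Vgll2 in LM-like cells (222.9 CPM per kb, before Tead2 at 20.97 and Tead4 at 20.04) and in EM-like cells (69.6, before Tead2 at 29.6 and Vgll3 at 23.5). It was Tead2 in DF-like (26.2), EP-like (39.8), NP-like (39.4) and N-like cells (7.61), and Wwtr1 in LP-like cells (18.99, before Vgll4 at 14.1 and Tead2 at 13.5). These are sums over all days and cells of a class and carry no replicate error. The order changed with the day. Tead2 led LP-like cells at E14.5 (20.95, before Vgll4 at 13.4 and Wwtr1 at 8.37) and Wwtr1 at E16.5 (28.3, before Vgll4 at 15.1 and Tead2 at 7.64), and in DF-like cells Wwtr1 (27.1) and Vgll4 (21.7) stood before Tead2 (14.6) at E16.5. In N-like cells Vgll4 (4.31) stood before Tead2 (1.56) at E14.5. These orders by day were those of Smart-seq2 and were not seen on 10×, whose values were not divided by length. There Tead2 lay above Wwtr1 at E16.5 in LP-like cells (116.1 and 76.5 CPM). In DF-like cells of that day it had 151.8 CPM, Wwtr1 105.6 and Vgll4 57.2 CPM. In N-like cells at E14.5 Tead2 had 65.5 CPM and Vgll4 19.6 CPM. PE-like cells, with 30 cells on 10× at E16.5, held 7 counts of Tead2 (128.4 CPM), 4 of Vgll4, 3 of Wwtr1 and 2 each of Tead1 and Yap1, and none of the other members.

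**Figure D1:**
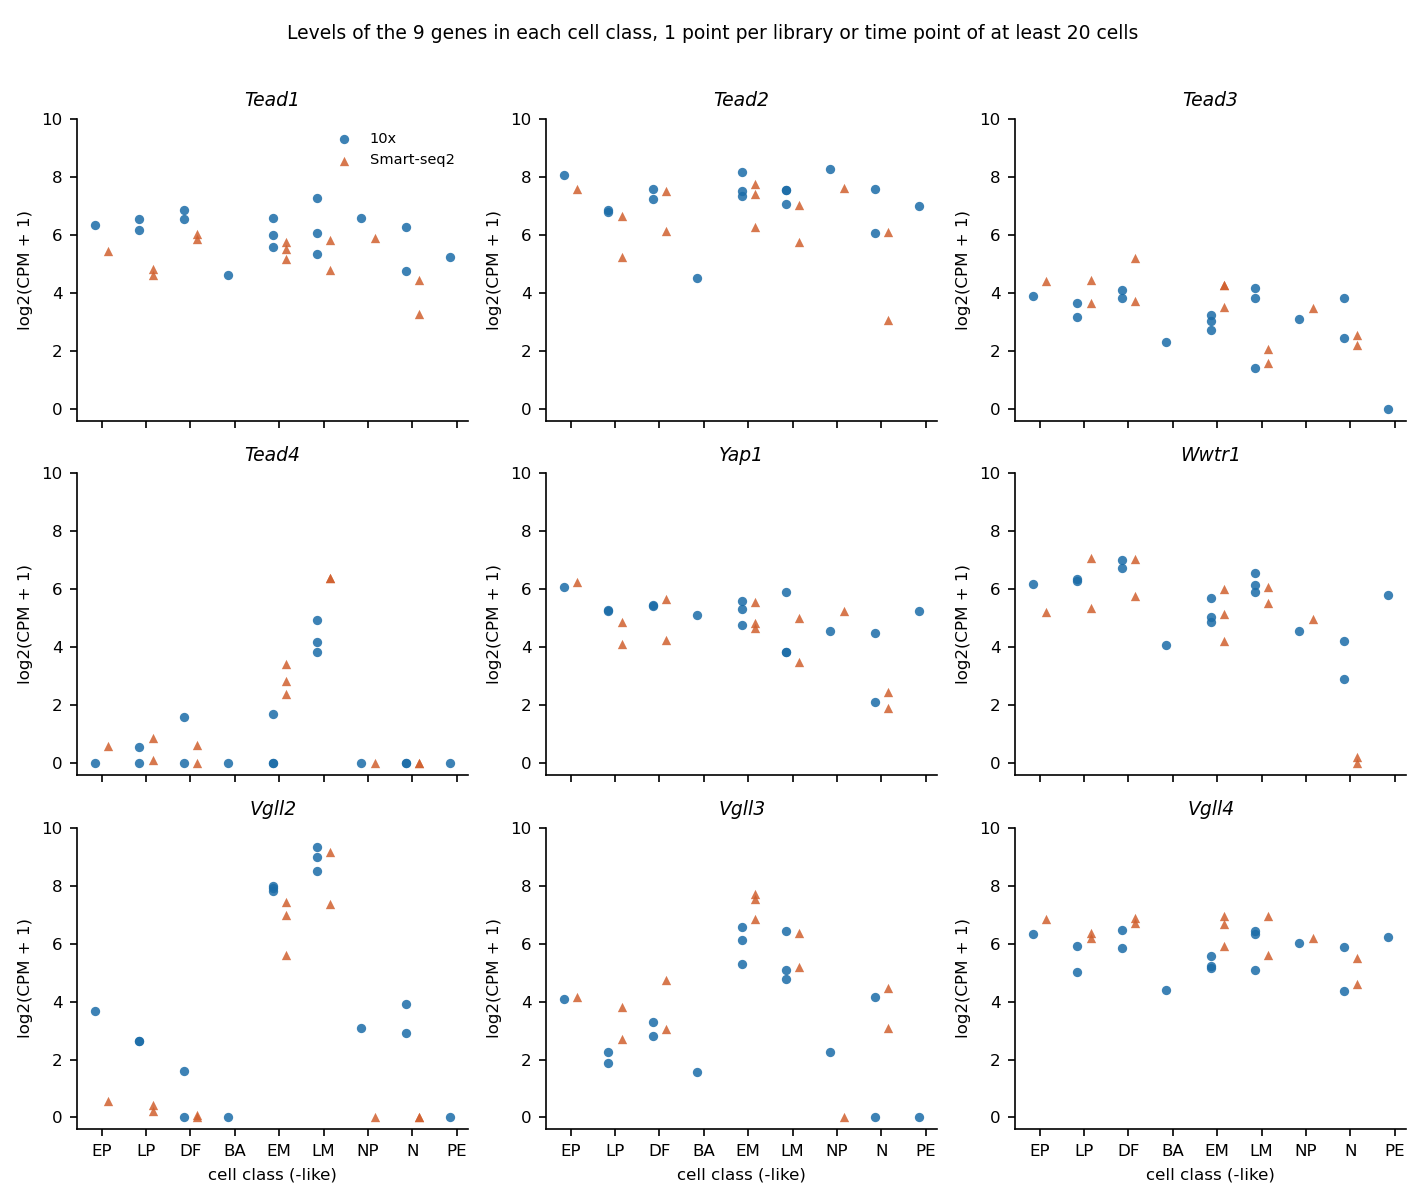
Levels of the 9 members in each class, as log2(CPM + 1), 1 panel a gene; each point is the sum over the cells of 1 class in 1 pool, marked by platform, and the x axis gives the class. Vgll2, Vgll3 and Tead4 stand highest in the EM-like and LM-like columns, and the other members spread over most classes.

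Tead2, known for its expression in the early embryo, had the highest level per length of the 4 Tead genes in each of the 7 Smart-seq2 classes over all days, though in LM-like cells at E16.5 Tead4 (23.1 CPM per kb) stood above it (11.2). On 10× LM-like cells of that day had 185.5 CPM of Tead2 and 13.2 CPM of Tead4, the latter from 1 count. Its mean over pools was highest in NP-like and EP-like cells on both platforms, classes with a pool at E12.5 alone. Its level was 310.7 CPM in NP-like and 269.3 CPM in EP-like cells on 10×, and 194.8 and 190.8 CPM on Smart-seq2. On that day EM-like cells lay above EP-like cells on 10× and above both classes on Smart-seq2. EM-like cells had 286.4 CPM on the first day, 182.5 on the second and 163.01 on the third on 10× and 215.1, 171.3 and 76.4 CPM on Smart-seq2. LM-like cells had 186.9, 134.1 and 185.5 CPM on 10× at these days and 130.6 and 53.7 CPM on Smart-seq2 at E14.5 and E16.5. DF-like cells (189.1 and 151.8 CPM on 10×, 183.6 and 69.7 on Smart-seq2 at E14.5 and E16.5) lay above LP-like cells (108.9 and 116.1, 100 and 36.6) in every pool. BA-like cells, measured on 10× at E16.5 alone, had 21.8 CPM from 11 counts, the lowest 10× value of Tead2 in any class.

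Tead1 varied less. On 10× it was lowest in BA-like cells at 23.8 CPM, with 71.3 and 92.4 CPM in LP-like cells and 92.03 and 114.4 CPM in DF-like cells at E14.5 and E16.5. LM-like cells had 152.95, 39.7 and 66.2 CPM over the 3 days and EM-like cells 94.04, 63.1 and 47.1 CPM. On Smart-seq2 DF-like cells again led (63.9 and 56.97 CPM), next to NP-like cells at 59.2 CPM, and N-like cells had 8.65 CPM at E12.5 and 20.7 CPM at E14.5. The highest value, that of the LM-like pool of E12.5, came from 36 cells, and the ranges of DF-like, LP-like, EM-like and LM-like cells on 10× met one another.

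Tead4, a Tead factor of differentiating muscle, was nearly limited to LM-like cells. On Smart-seq2 these had 82.4 CPM at E14.5 and 83.2 CPM at E16.5, and 52 of 73 cells (71.2%, exact Clopper-Pearson 95% interval 59.4 to 81.2%) held a count, while EM-like cells had 4.17, 9.64 and 6.12 CPM over the 3 days and 25 cells did (15.3%, 10.2 to 21.8%). In N-like cells, which were taken as a class that should lack it, no cell held a count, which allows a share of up to 1.71% (same interval; median depths 792132, 655334 and 831633 expected counts in that order). On 10× the LM-like values were 16.99, 29.8 and 13.2 CPM, from only 2, 18 and 1 counts, against 0, 2.23 and 0 CPM in EM-like cells. The first and the last lie under the level that 3 counts would give there (25.5 and 39.7 CPM), and a count of 0 allowed up to 6.41 CPM in EM-like cells at E12.5 and 10.9 CPM at E16.5. Outside muscle the highest value was 2.02 CPM on 10× (2 counts in DF-like cells) and 0.844 CPM on Smart-seq2 (LP-like cells). Tead3 did not pass 16.99 CPM in any 10× pool, with 0 to 25 counts a pool, and on Smart-seq2 ran from 1.97 CPM in LM-like cells to 35.7 CPM in DF-like cells, both at E14.5.

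Wwtr1 was highest in fibroblast and late progenitor classes. DF-like cells had 127.4 and 105.6 CPM and LP-like cells 80.7 and 76.5 CPM on 10× at E14.5 and E16.5, and on Smart-seq2 DF-like cells had 53.6 and 130 CPM and LP-like cells 40.01 and 135.2 CPM at these days. EM-like cells had 32.1, 28.5 and 50.7 CPM on 10× and 34.3, 17.8 and 63.2 CPM on Smart-seq2. N-like cells held almost none on Smart-seq2 (0.165 CPM at E12.5 and 0 at E14.5, which allows up to 0.0298 CPM), while on 10× they had 17.4 and 6.55 CPM. The Smart-seq2 values of DF-like and LP-like cells overlap, so that their order is not set apart by the spread over pools.

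Yap1 was highest in EP-like cells on both platforms, at 67.3 CPM on 10× and 75.1 CPM on Smart-seq2. By the mean over pools DF-like cells followed on 10×, with 42.5 and 41.8 CPM, while EM-like cells had 47.1 CPM in their highest pool there. DF-like cells had 49.2 and 17.9 CPM on Smart-seq2 at E14.5 and E16.5. LM-like cells ran from 59.5 CPM at E12.5 to 13.2 CPM at each later day on 10×, and from 30.9 to 10.2 CPM on Smart-seq2. The 10× values rest on 7, 8 and 1 counts in the order of the days. The last lies under the level that 3 counts would give. N-like cells were lowest on Smart-seq2 (2.71 and 4.52 CPM). Vgll4, with 114.2 CPM in the EP-like class, 104.2 and 116.9 CPM in DF-like cells and 72.3 and 81.2 CPM in LP-like cells on Smart-seq2, had its lowest values in N-like cells (44.7 and 23.3 CPM).

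Vgll2 and Vgll3 were highest in the muscle classes. Vgll2 reached 365.4, 639 and 503.5 CPM in LM-like cells and 239.4, 253.4 and 224.6 CPM in EM-like cells on 10×, so that the ranges of the classes did not meet. On Smart-seq2 LM-like cells had 564.6 CPM at E14.5 and 164.2 CPM at E16.5 and EM-like cells 126.7, 170 and 48.1 CPM, and the ranges met while the LM-like value was the higher on each shared day. On 10× a Vgll2 count was seen in 78.2% of LM-like cells (95% interval 71.1 to 84.2%, and 41.7% when cells were thinned to 1000 UMIs), in 49.5% of EM-like cells (45.2 to 53.9%, and 20% thinned) and in 2.59% of N-like cells (0.868% thinned), at median depths of 4859, 3421 and 3079 UMIs. The N-like share is given as that of a class outside muscle, and both muscle classes lay above it. Vgll2 averaged 10.4 CPM over the N-like pools of 10× and 1.01 CPM over the DF-like ones. DF-like cells had been named beforehand as the class that should lack it. The source of the counts outside muscle was not tested. Vgll3 was highest in EM-like cells, with 38.5, 94.9 and 68.8 CPM on 10× and 185.1, 207.5 and 113.4 CPM on Smart-seq2. LM-like cells had 84.97, 33.1 and 26.5 CPM on 10× and 35.7 and 81.5 CPM on Smart-seq2, and DF-like cells had at most 8.80 CPM on 10× and 25.98 CPM on Smart-seq2 and LP-like cells at most 3.75 and 12.9 CPM.

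Across the 16 class sums of 10× the genes whose log2(CPM + 1) followed a member most closely, among 8002 genes with a mean of at least 10 CPM, were for Vgll2 Myod1 (Pearson's r = 0.970), Ank1 (0.964) and Tnnt1 (0.961), for Vgll3 Fitm1 (0.898), and for Wwtr1 Vstm4 (0.907), Lpar1 (0.903) and Sec24d (0.902). Tead2 ran closest to Igf2bp1 (0.884), Yap1 to Hes1 (0.879), Tead1 to Ackr3 (0.846) and Vgll4 to Fam118a (0.772). Tead4 and Tead3 had mean levels under 10 CPM, and their closest genes were Il17b (0.956) and Srgap2 (0.898). The sums share 3 libraries and their depths, so the values describe likeness of pattern and carry no test.

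The first comparison asks how the members change between early and late muscle cells. In LM-like cells Tead4, Vgll2 and Wwtr1 were higher and Vgll3 was lower than in EM-like cells of the same pool. Of the 9 members 4 were thus called, 3 higher and 1 lower, and the rest did not pass the test. Tead4 differed by 13.2-fold, the most of all members. Among 10175 genes tested in 5 pools 24.3% were called (10% higher and 14.3% lower), with a median log2 fold change of -0.04 over all genes and 0.04 over the members.

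**Figure D2:**
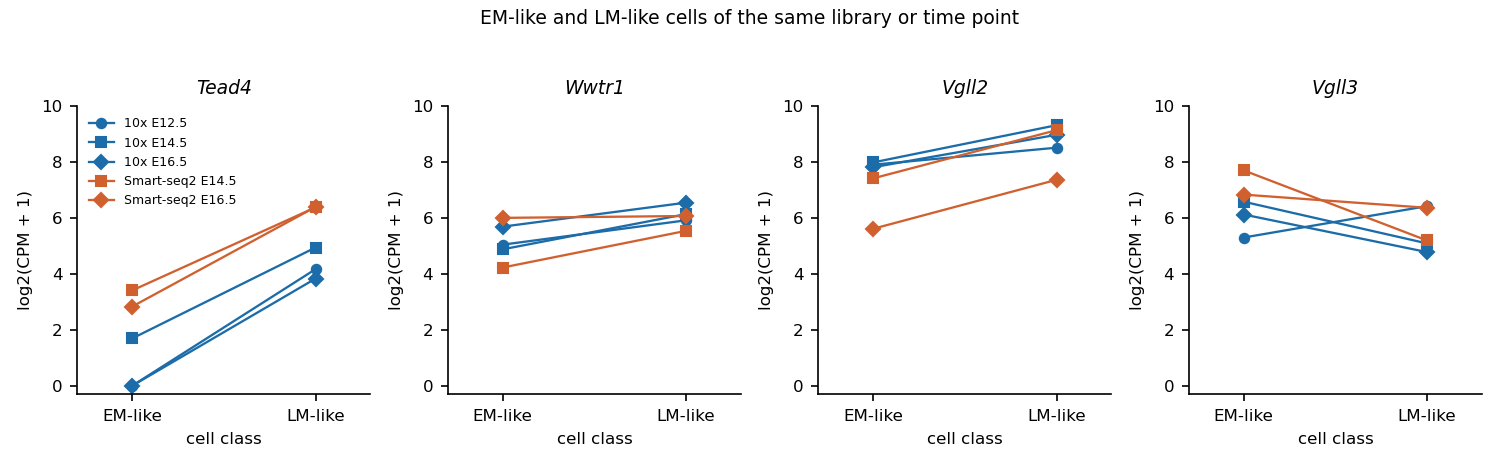
Tead4, Vgll2, Vgll3 and Wwtr1 in EM-like and LM-like cells, 1 panel a gene, as log2(CPM + 1); each line joins the sums of 1 pool, so that its slope is the difference within a platform and day. All 5 lines rise for Tead4, Vgll2 and Wwtr1, and 4 of 5 fall for Vgll3.

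For Tead4 the log2 fold change was 3.73 ± 0.43 (SE, adjusted p = 6.5e-07, higher in 5 of 5 pools) and for Vgll2 1.46 ± 0.19 (adjusted p = 2.9e-06, 5 of 5 pools), and both calls held under all 13 alternatives. For Wwtr1 it was 0.96 ± 0.27 (adjusted p = 0.0113, 5 of 5 pools). For Vgll3 it was -1.08 ± 0.34 (adjusted p = 0.0244, lower in 4 of 5 pools and higher on 10× at E12.5). The Vgll3 call was lost without the 10× pool of E14.5 (-0.82), the 10× pool of E16.5 (-1.05) or the E14.5 pool of Smart-seq2 (-0.47), with DESeq2 (-0.97), without the filter on low counts (-1.09) and with the Smart-seq2 sums split by sequence batch (-0.47). The Wwtr1 call was lost without the 10× (0.95) or the Smart-seq2 (0.78) pool of E14.5 and with that split (0.78). Tead1 (0.04 ± 0.25), Tead2 (-0.32 ± 0.17), Yap1 (-0.44 ± 0.38), Vgll4 (0.19 ± 0.24) and Tead3 (-1.36 ± 0.85) were not called.

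In a fit added after seeing the data the effect on Vgll3 differed between days, mostly through Smart-seq2. On 10× it moved little, and the LM-like value at E16.5 rests on 2 counts there. The LM-like over EM-like log2 difference was greater at E16.5 than at E14.5 by 1.52 ± 0.46 (adjusted p = 0.0443 for the interaction of class and day in edgeR's quasi-likelihood test), in a test that called 2.19% of 12485 genes and no other member. Of the Hippo regulators 2 rose and 4 fell of 24 tested (median -0.40), where 24.3% of all genes were called. Amotl2, a scaffold that binds Yap1, was at 1.38 ± 0.26, Fat4, a giant protocadherin, at -6.68 ± 2.14 and Dchs1, its ligand, at -5.10 ± 0.69. Fat4 had no count in LM-like cells in 4 of 5 pools, so its fitted value depends on the prior count. Of the target signature 2 rose and 5 fell of 17 tested (median -0.91), with Myof, a membrane repair protein, at 2.14 ± 0.32, the receptor kinase Axl at -5.63 ± 1.58 and Ccdc80, a matrix protein, at -4.64 ± 0.88.

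The next comparison sets EM-like against LP-like cells, the muscle and the mesenchymal branch at the same days. Vgll2, Vgll3, Tead4 and Tead2 were higher and Wwtr1 was lower in EM-like cells. Vgll2 stood 191.8-fold and Vgll3 19.5-fold above LP-like cells, whereas Yap1, Vgll4, Tead1 and Tead3 were not called. Of 14055 genes tested in 4 pools 33.5% were called (14.8% higher and 18.8% lower), with a median log2 fold change of -0.16 over all genes and 0.25 over the members.

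The LP-like levels of Vgll2 behind this were 5.22 CPM on average over both 10× pools and 0.171 and 0.340 CPM on Smart-seq2, so that no LP-like pool came near an EM-like one. The log2 fold change was 7.58 ± 0.64 for Vgll2 (adjusted p = 2.1e-05), 4.28 ± 0.23 for Vgll3 (adjusted p = 1.6e-06) and 0.80 ± 0.16 for Tead2 (adjusted p = 0.00368), each higher in 4 of 4 pools. For Tead4 it was 4.26 ± 1.16 (adjusted p = 0.0204, higher in 3 of 4 pools), and both classes held no count on 10× at E16.5. Wwtr1 was lower in 4 of 4 pools (-1.14 ± 0.19, adjusted p = 0.00127). Every one of these calls held in the 58 alternative values that could be computed for them, Tead4 having 10 and the others 12 each. The day interaction called 2.66% of genes and none of the members, with Vgll2 at -1.55 (adjusted p = 0.217).

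More genes of both lists fell than rose in this comparison, as did more of all genes tested (18.8% lower and 14.8% higher). Of 25 Hippo regulators 1 rose and 9 fell (median -0.36), with Ajuba, a LIM protein that binds Lats kinases, at 1.81 ± 0.43 and Amot (angiomotin), another scaffold that binds Yap1, at -4.18 ± 0.25. Of 21 tested genes of the signature 1 rose and 12 fell (median -1.01), with Ankrd1 at 4.98 ± 0.75 and Ccn2, a matrix-associated growth factor, at -4.87 ± 0.72. Dock5, an activator of Rac, also fell, with no count in EM-like cells of any pool, against 0.979 and 2.77 CPM in LP-like cells on 10× and 12.4 and 2.19 CPM on Smart-seq2 at E14.5 and E16.5, and no fold is given for it. Ankrd1 is also a gene of striated muscle.

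DF-like against LP-like cells asks what sets dermal fibroblasts apart from late progenitors. The Tead factors Tead1 and Tead2 and the cofactor Vgll4 were higher in DF-like cells, each in 4 of 4 pools and by 1.53 to 1.89-fold. Neither coactivator was called. Of 14187 genes tested in 4 pools 11.7% were called (5.91% higher and 5.8% lower), with a median of -0.00466 over all genes and 0.51 over the members.

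The log2 fold change was 0.83 ± 0.13 for Tead2 (adjusted p = 0.00365), which was called in all 12 alternatives. It was 0.92 ± 0.21 for Tead1 (adjusted p = 0.0198), whose call was lost without the 10× pool of E16.5 (1.01) or the Smart-seq2 pool of E14.5 (0.64) and at a clustering resolution of 0.4 (0.66). It was 0.61 ± 0.16 for Vgll4 (adjusted p = 0.0349), and this call was lost when any 1 of the 4 pools was left out (0.56 to 0.63). Yap1 (0.40 ± 0.22) and Wwtr1 (0.39 ± 0.17, adjusted p = 0.178) were not called, and Vgll3 (0.86 ± 0.63) was called only with the E14.5 pool of Smart-seq2 left out (1.75). Tead3 (0.51 ± 0.32, higher in 4 of 4 pools), Vgll2 (-2.92 ± 1.37, lower in 4 of 4 pools) and Tead4 (-0.74 ± 1.61) were not called either. The day interaction called 4.41% of genes and no member, with Vgll3 at 2.55 (adjusted p = 0.113). In a simulation of this comparison with known folds 15.5% of the calls were false.

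Of 25 Hippo regulators 2 rose and 1 fell (median -0.04), where 11.7% of all genes were called. The kinase gene Lats2 (0.82 ± 0.20) and Frmd6 (0.76 ± 0.15), which acts above it, rose, and Amot (-1.47 ± 0.20) fell. Of 21 tested genes of the signature 2 rose and 5 fell (median -0.23), with Nt5e, an ectonucleotidase, at 4.499 ± 0.31 and Igfbp3, a carrier of insulin-like growth factors, at -3.00 ± 0.32.

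**Figure D3:**
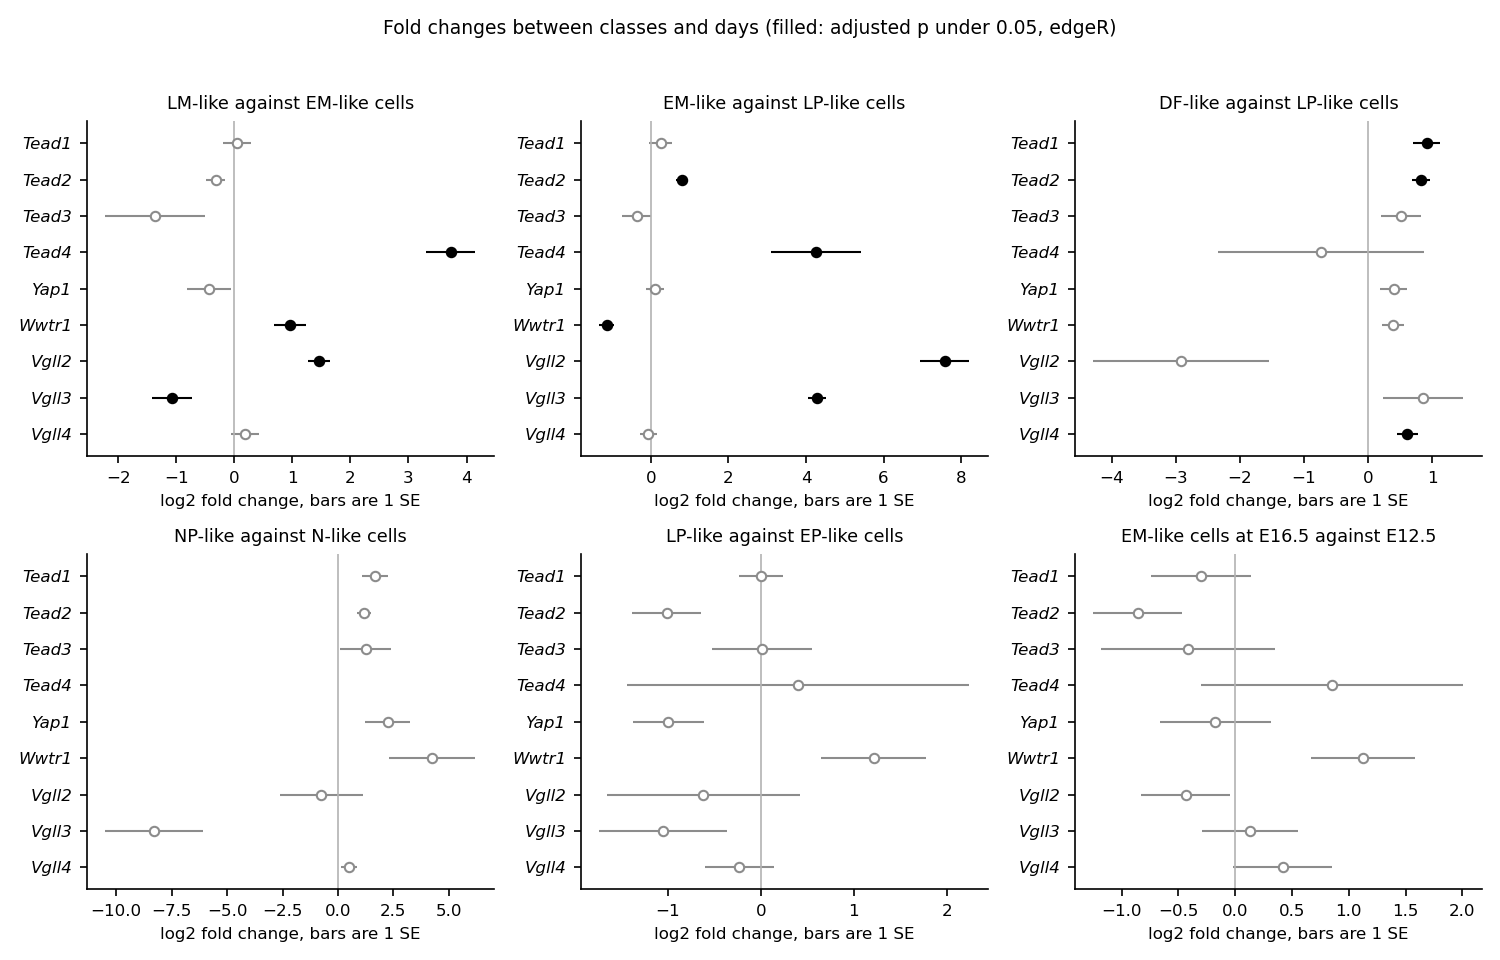
Log2 fold changes of the members in the 6 class comparisons, with bars of ± 1 SE; filled points passed an adjusted p under 0.05 and open points did not. Tead4 and Vgll2 lie far to the right for LM-like against EM-like cells, and no point is filled for the 3 comparisons of neural cells, progenitors and EM-like days.

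Between neural classes, progenitor classes and days of EM-like cells no member passed the test. NP-like against N-like cells were compared in 2 pools, where 6.98% of 13014 genes were called (2.39% higher and 4.59% lower) and 0 of 8 members tested. Tead2 in NP-like cells (310.7 CPM on 10×, 194.8 on Smart-seq2) stood above N-like cells (190.6 and 67.8 CPM at E12.5), with a log2 fold change of 1.17 ± 0.32 (adjusted p = 0.0591 in edgeR's quasi-likelihood test), and Tead1, Tead3, Vgll4, Yap1 and Wwtr1 also had the larger value in NP-like cells in 2 of 2 pools, without a call. Vgll3 ran the other way, with 16.7 CPM on 10× and 20.9 CPM on Smart-seq2 in N-like cells at E12.5 against 3.79 and 0.0151 CPM in NP-like cells (adjusted p = 0.0543). At an unadjusted p under 0.05 there were 3 members (Tead1, Tead2 and Vgll3), and DESeq2 called 2 of them (Tead2 and Vgll3). Of the lists Ajuba rose (2.34 ± 0.46) and Crim1, a membrane protein that binds BMP ligands, fell (-4.29 ± 0.82), and no other gene of either passed.

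No pool held at least 20 cells each of LP-like and EP-like cells, and class and day cannot be told apart between them. Of 14046 genes in 6 sums 5.64% were called (4.74% higher and 0.897% lower in LP-like cells), and none of the 9 members. Tead2 was at 269.3 and 190.8 CPM in EP-like cells against at most 116.1 CPM in LP-like cells (-1.01 ± 0.37, unadjusted p = 0.0179 and adjusted p = 0.142), and Yap1 at 67.3 and 75.1 CPM against at most 37.5 CPM (-0.99 ± 0.38, unadjusted p = 0.0233 and adjusted p = 0.165). For both the ranges of the classes did not meet, but the EP-like class has only 1 sum on each platform. The share of all genes whose ranges did not meet was not computed. DESeq2 called these 2 members (-1.14 and -1.13), and edgeR called Tead2 when the Smart-seq2 pool of E14.5 was left out (-1.33). No Hippo regulator was called, and of the signature 3 rose and 1 fell of 22 (median 0.52), with Axl at 2.42 ± 0.43 and the ligand Tgfb2 at -1.54 ± 0.37. The median of all genes was 0.11 here and moved by -0.12 under the scaling of DESeq2.

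EM-like cells at E16.5 were also set against those at E12.5, in 6 sums that hold E14.5 too. Most of these cells lay in cluster 8 at E12.5 and in cluster 11 on 10× at E16.5, and cluster 3 held most of E14.5 and of Smart-seq2 at E16.5. Of 12500 genes 10.5% were called (5.56% higher and 4.98% lower) and 0 of 9 members, by edgeR or by DESeq2. Tead2 went from 286.4 to 163.01 CPM on 10× and from 215.1 to 76.4 CPM on Smart-seq2 (-0.86 ± 0.39, unadjusted p = 0.0277 and adjusted p = 0.156), and Wwtr1 from 32.1 to 50.7 and from 34.3 to 63.2 CPM (1.12 ± 0.46, unadjusted p = 0.0144 and adjusted p = 0.101). Both were called without the 10× pool of E16.5 (-1.19 and 1.38). Of 25 Hippo regulators 3 fell and none rose (median -0.57), with Amot at -3.42 ± 0.74 and Fat4 at -3.28 ± 0.66. Of 20 tested genes of the signature 3 rose and none fell (median -0.47), with Ankrd1 at 3.74 ± 0.67 and the stress gene Gadd45a at 2.71 ± 0.51.

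BA-like and LP-like cells shared 1 pool, the 10× library of E16.5, so their counts are given as ratios with exact intervals that cover counting error only. In BA-like cells Tead1 had 12 counts against 35 in LP-like cells (ratio 0.251, 95% interval 0.118 to 0.494), Tead2 11 against 44 (0.183, 0.0851 to 0.359) and Wwtr1 8 against 29 (0.202, 0.0796 to 0.452). The intervals of these 3 members lay below 1. Of 6930 genes with at least 10 counts 42.7% had an interval that left out 1, 23.5% below it and 19.2% above it (median ratio 0.974). Yap1 was level, with 17 against 14 counts (0.887, 0.412 to 1.94), and Vgll4 had 10 against 12 (0.609, 0.236 to 1.54). Tead4 had no count in either class, and Vgll2, Vgll3 and Tead3 had at most 3.

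The bulk libraries ask what culture and sorting do to the members. They differ in depth and make-up, with 3390851 to 11758559 counts in ADM, 19480903 to 35332908 in DMEM, 17320736 to 27594447 in fresh Pdgfra+ and 24862787 to 32947290 in fresh Pdgfra-/Cd36+ libraries. The mitochondrial share was 7.82 to 19.98%, 7.25 to 14.9%, 3.48 to 4.35% and 15.9 to 20.8% in that order. The TMM scaling factor (edgeR's trimmed mean of M-values) was 0.416 to 0.929 in ADM, 0.755 to 0.884 in DMEM, 2.04 to 2.08 in fresh Pdgfra+ and 1.67 to 1.83 in fresh Pdgfra-/Cd36+ libraries. Levels are given as TMM-scaled CPM, and a result that moves without this scaling is given both ways. In bulk samples fewer cells of a type and less RNA per cell cannot be told apart.

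The markers of other cells moved with the states. The 9 brown adipocyte markers summed to 2124 to 153020 CPM in ADM and 5.62 to 36489 CPM in DMEM, against 63.7 to 456.8 CPM in fresh Pdgfra+ and 15786 to 18659 CPM in fresh Pdgfra-/Cd36+ cells. The 9 pericyte markers summed to 4445 to 23452 CPM in ADM and 13620 to 24303 CPM in DMEM and to at most 340 CPM in fresh cells. The 8 early muscle markers summed to 129.4 to 406.9 CPM in fresh Pdgfra+ cells and to 11.9 to 40.1 CPM in ADM, where Myf5, Msc, Pax7 and Fgfr4 were at 0 in every library, and to 35.04 to 107.01 CPM in DMEM, where Myf5 and Pax7 were. The 12 late progenitor markers summed to 7739 to 10936 CPM in fresh Pdgfra+ and 458.3 to 487.6 CPM in fresh Pdgfra-/Cd36+ cells. The part of these cells in the results that follow was not tested.

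**Figure D4:**
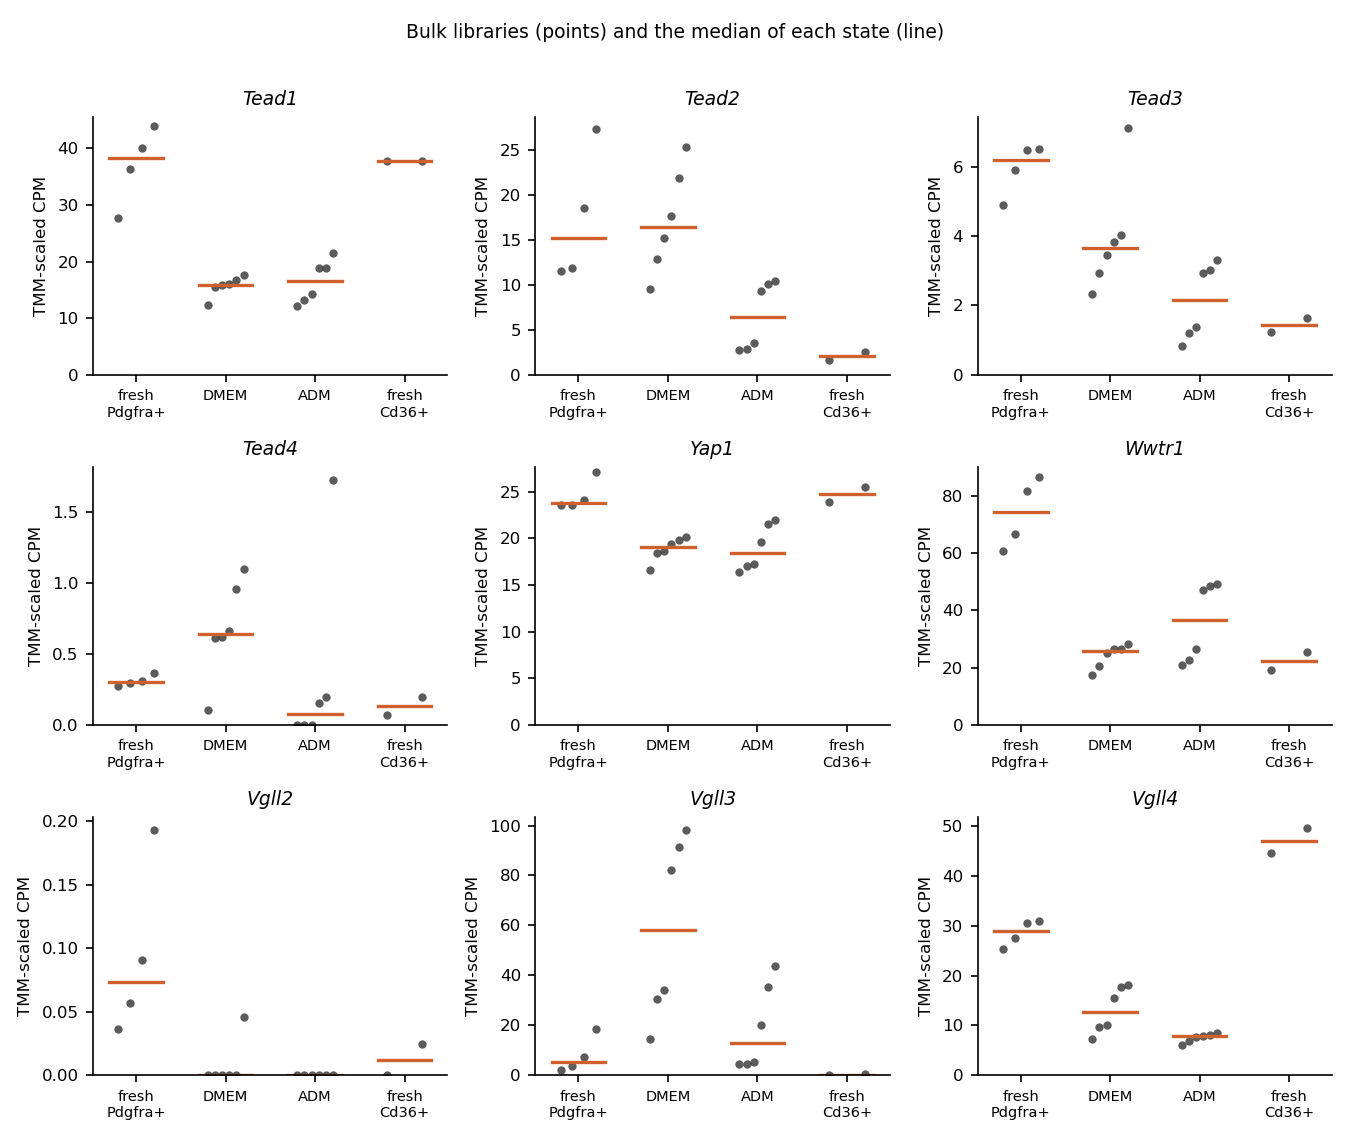
Level of each member in the 18 bulk libraries in TMM-scaled CPM, on an axis of its own for each gene; each point is 1 library, ordered by value within a state, and the line is the median of the state. Vgll4 and Wwtr1 stand above the cultured libraries in every fresh Pdgfra+ library, and Vgll2 is near 0 in all states.

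In ADM against DMEM culture Tead2 and Vgll4 were lower, and no member was higher. Of 17586 genes tested 9.16% were called (5.21% higher and 3.94% lower), with a median of -0.02 over all genes and -0.71 over the 8 members tested. Of the genes called 56.96% were higher in ADM, which was 70.28% under RLE scaling and 21.1% without scaling. In ADM the lowest, median and highest library had 2.72, 6.47 and 10.4 CPM of Tead2 and 6.05, 7.79 and 8.37 CPM of Vgll4, and in DMEM 9.60, 16.47 and 25.3 CPM and 7.29, 12.8 and 18.2 CPM. The states overlapped for both, as they did for every member, while 3.29% of all genes did not overlap.

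The log2 fold change was -1.34 ± 0.37 for Tead2 (adjusted p = 0.0347) and -0.73 ± 0.20 for Vgll4 (adjusted p = 0.0348). Both calls were lost with the libraries of the comparison alone (-1.29 and -0.68), with the replicate block (-1.30 and -0.70) and without any 1 of the ADM libraries 1, 2 and 3 of the first set of column names, which has no trailing suffix where the second set has one (Tead2 -1.19, -1.18 and -1.21, Vgll4 -0.75, -0.75 and -0.74). Each was also lost without some DMEM libraries, Tead2 without library 3 of the first set and 1, 2 or 3 of the second (-1.38, -1.19, -1.25 and -1.32) and Vgll4 without 1, 2 or 3 of the first (-0.61, -0.63 and -0.68). The Tead2 call was lost without scaling (-1.51) and that of Vgll4 with RLE scaling (-0.63). Vgll3 had 4.39, 12.8 and 43.6 CPM in ADM against 14.3, 58.02 and 98.4 CPM in DMEM (-1.58 ± 0.66, adjusted p = 0.133), and Wwtr1 21.04, 36.8 and 49.2 against 17.5, 25.9 and 28.3 CPM (0.64 ± 0.24, adjusted p = 0.0926), neither called. Yap1 (16.4, 18.4 and 21.96 against 16.6, 19.04 and 20.2 CPM) and Tead1 (12.1, 16.6 and 21.5 against 12.3, 15.9 and 17.6 CPM) covered the same range in both media. Tead4 was at or below 1.73 CPM in each, and Vgll2 had 1 count in all 12 cultured libraries.

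Among the pathway genes 1 Hippo regulator rose and 4 fell of 25 (median -0.25), where 9.16% of all genes were called. Sav1, the scaffold of the Hippo kinases, rose (2.70 ± 0.74) and Amot fell (-1.86 ± 0.35). Of 21 tested genes of the signature 1 rose and 1 fell (median -0.29), which were Gadd45a (1.94 ± 0.53) and Asap1, a regulator of Arf GTPases (-1.15 ± 0.23).

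DMEM culture against fresh Pdgfra+ cells showed lower Tead1, Vgll4, Yap1 and Wwtr1 and higher Vgll3. By the labels the cultured cells came from E14.5 and the fresh ones from E16.5, so culture and embryonic day cannot be told apart, and the test compares wells with technical duplicates of sorts. The state changed most genes, with 53.9% of 17586 called (20.2% higher and 33.6% lower) and a median of -0.31, against -0.47 over the 8 members tested, so 5 of 8 members called lies near the background share. Of the genes called 37.5% were higher in DMEM, and 5.75% without scaling.

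Fresh Pdgfra+ libraries had 43.9, 40.1, 36.4 and 27.7 CPM of Tead1 and 86.5, 66.7, 81.7 and 60.8 CPM of Wwtr1, each above the highest DMEM library (17.6 and 28.3 CPM). They had 27.5, 30.9, 25.4 and 30.5 CPM of Vgll4 and 23.5, 23.5, 27.1 and 24.1 CPM of Yap1, again above the highest DMEM library (18.2 and 20.2 CPM). For these 4 members the states did not overlap, as for 38.6% of all genes. The log2 fold change was -1.22 ± 0.18 for Tead1 (adjusted p = 2.6e-05), -1.59 ± 0.26 for Wwtr1 (adjusted p = 8.0e-05), -1.12 ± 0.21 for Vgll4 (adjusted p = 3.1e-04) and -0.36 ± 0.13 for Yap1 (adjusted p = 0.0252). Without scaling all 4 were larger, at -2.56, -2.93, -2.47 and -1.71. The Yap1 call was lost without fresh library 1 (-0.31) or DMEM library 3 (-0.33) of the second set of names.

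Vgll3 was the one member called higher in culture. The fresh libraries had 18.6, 7.24, 3.48 and 2.11 CPM and the DMEM libraries 14.3, 33.9, 30.5, 91.3, 98.4 and 82.1 CPM, so that 1 fresh library lay within the cultured range. The log2 fold change was 2.93 ± 0.81 (adjusted p = 0.00585) and 1.61 without scaling, where it was not called. Tead2 (0.00461 ± 0.39, and -1.33 without scaling) and Tead3 (-0.57 ± 0.33) were not called. Over 16 alternatives Tead2 was called in 1 and Tead3 in 3, with values of Tead3 down to -1.895. Of 25 Hippo regulators 2 rose and 14 fell (median -0.77), where 53.9% of all genes were called. Ajuba was at 2.16 ± 0.29, Sav1 at -3.28 ± 0.70 and Wtip, a LIM protein of the family of Ajuba, at -2.84 ± 0.42. Of 21 tested genes of the signature 6 rose and 7 fell (median 0.21), with Ankrd1 at 3.22 ± 0.49 and Nt5e at -2.65 ± 0.93.

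Fresh Pdgfra-/Cd36+ against fresh Pdgfra+ cells compares the adipocyte sort with the mesenchymal one. Tead2, Tead3, Vgll3 and Wwtr1 were lower in Cd36+ cells and Vgll4 was higher, while Tead1 and Yap1 were not called. Of 17586 genes 31.8% were called (13.8% higher and 18% lower), with a median of -0.05 over all genes and -1.40 over the 8 members tested. The Cd36+ group is a pair of technical duplicates of 1 sort, so the test compares these libraries and not the conditions.

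The Cd36+ libraries had 1.69 and 2.56 CPM of Tead2, where the fresh Pdgfra+ libraries had 27.4, 18.6, 11.5 and 11.9 CPM, and 0.241 and 0.166 CPM of Vgll3. They had 19.2 and 25.4 CPM of Wwtr1 and 1.23 and 1.63 CPM of Tead3 (4.91 to 6.50 CPM in Pdgfra+ libraries), and 44.6 and 49.6 CPM of Vgll4. The groups did not overlap for any of these 5, nor for Tead4 and Vgll2 at their low levels, as for 49.7% of all genes. Tead1 was at 37.8 CPM in both Cd36+ libraries, and Yap1 at 23.9 and 25.5 CPM, both inside the Pdgfra+ range.

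The log2 fold change was -2.99 ± 0.61 for Tead2 (adjusted p = 0.00183), -5.22 ± 1.34 for Vgll3 (adjusted p = 0.00763), -1.70 ± 0.38 for Wwtr1 (adjusted p = 0.00338) and -2.02 ± 0.50 for Tead3 (adjusted p = 0.00604). For Vgll4 it was 0.75 ± 0.28 (adjusted p = 0.0463), a call kept in 3 of 13 alternatives. Without Cd36+ library 1 the calls of Tead3 (-1.87), Vgll3 (-5.52) and Wwtr1 (-1.55) were lost, and that of Vgll3 also without library 2 (-5.00), while Tead2 was called in all 13. In the single cells Tead2 and Wwtr1 also had ratios below 1 in BA-like against LP-like cells, and Tead1 did too, which was not called between the sorts. Vgll4, called higher in the Cd36+ sort, had a ratio of 0.609 there, with an interval that held 1. Vgll3 and Tead3 had few counts in those cells. Such differences between platforms were not tested. Of 25 Hippo regulators 2 rose and 11 fell (median -0.56), where 31.8% of all genes were called. Sav1 was at 2.36 ± 0.78 and Dchs1 at -4.49 ± 0.73. Of 21 tested genes of the signature 1 rose and 14 fell (median -2.31), with the phosphatase gene Ptpn14 at 0.87 ± 0.30 and Tgfb2 at -5.19 ± 0.50.

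**Figure D5:**
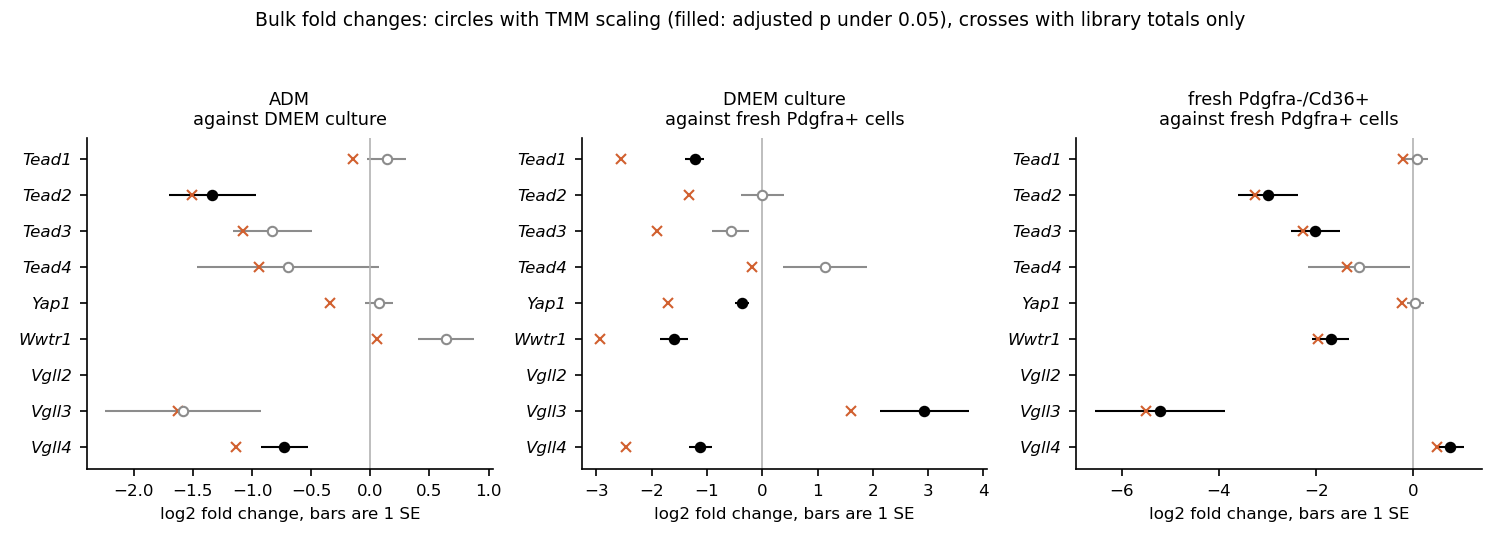
Log2 fold changes of the members in the 3 bulk comparisons, with bars of ± 1 SE; filled circles passed an adjusted p under 0.05, open circles did not, and crosses are the fit without scaling. Vgll3 stands to the right for DMEM against fresh Pdgfra+ cells (2.93) and far to the left for Pdgfra-/Cd36+ against Pdgfra+ cells (-5.22).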

How the data were processed

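Single-cell profiles of YFP+ cells came from 3 10× libraries and 982 Smart-seq2 wells, and 18 bulk libraries were sequenced beside them. The 10× values are UMI counts per gene, unscaled, made with Cell Ranger and deposited by the authors. The Smart-seq2 values are expected counts deposited by the authors, estimated with kallisto 0.44.0 and summed per gene, and were rounded to whole numbers for the tests. The bulk values are whole read counts deposited by the authors with no scaling, and their aligner and counter are not given in the sources used here. The submitters' processing notes also name STAR, Seurat, bcl2fastq and the build mm10, with no role.

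Cells with at least 4000 genes (Smart-seq2), at most 15000 counts (10×) and at most 8% mitochondrial counts were kept. Scrublet (scanpy 1.11.5) called 26 of the 2921 10× cells as doublets, and these were kept. Both platforms were joined by canonical correlation in Seurat 5.3.0 (15149 shared genes, 2000 variable genes, 30 components, resolution 0.8), leaving out 53 genes of the members and lists. Clusters were named by their mean marker score, with at least 3 markers each in 5% of cells and 10 cells on a platform. The minimum score was lowered from 0.8 to 0.5 after the scores were seen, so that the 402 cells of the main E12.5 mesenchymal cluster took the name EP-like. Most markers are from tables that the study made on these cells. Classes differed little under other clusterings, with 97.86 to 99.37% of cells in the same class.

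Counts were summed per class and pool (at least 20 cells), with the pool as a block except where classes or days share no pool. edgeR 4.0.16 (filterByExpr, TMM) in R 4.3.3 was the test, called at an adjusted p under 0.05, and DESeq2 1.42.0, RLE scaling, no filter, other clusterings, cells without doublets or mitochondrial limit, Smart-seq2 sums by sequence batch and left-out pools or libraries were alternatives. Python 3.11.15 (numpy 2.4.6, pandas 2.3.3, scipy 1.17.1) did the rest. Where a class pair had 1 pool, exact conditional intervals (95%) were used, and a count of 0 was read as up to 3 counts. All such intervals and limits cover counting error only, since reads without molecular identifiers are not independent molecules. Shares of cells with a count were also taken after thinning to 1000 UMIs or 100000 counts. All 9 members were followed in each comparison, and those left unnamed in one were not called or not tested in it. From each pathway list some genes past the threshold are named, taken from those with the largest rise or fall. The rule allowed at most 4 of them in each comparison. The members and lists were chosen with earlier results of these data known. Ccn1 and Ccn2 were matched to their older symbols.

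The Thy1 gate of 16 bulk libraries could not be read from the names of the columns, so 9 planned comparisons between gates were not run and the 3 comparisons of states were added after seeing the data, as were the term for the sets of column names, the fit without scaling and the interaction with day. No 2 libraries of a state agreed within sampling noise (chi-square per degree of freedom of at least 4.08). The tests were checked on simulated counts with 200 genes changed. Of genes changed 4-fold, 65% were recovered for LM-like against EM-like, 66% for EM-like against LP-like, 61% for DF-like against LP-like, 14% for NP-like against N-like, 33% for LP-like against EP-like cells and 37% for the days of EM-like cells. False calls made up 7.55%, 26.4%, 15.5%, 27.3%, 29.4% and 2.33% of the calls in that order, above the nominal share in most. For the bulk comparisons 76% (ADM against DMEM), 71% (DMEM against fresh) and 40% (Pdgfra-/Cd36+ against Pdgfra+) were recovered, with 1.06%, 2.33% and 2.38% false calls. Every comparison called more genes on the real counts than the 200 changed here. The shares of false calls are thus not estimates for the real calls.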

Additional observations from a re-analysis of the deposited data

Results flagged for a closer look

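In 4 of the 26 sets of 4 to 10 bulk libraries looked at, 1 library lay far from the others by Dixon's criterion, which chance gives in about 1 set in 20. The highest DMEM library had 7.11 CPM of Tead3, where the next had 4.03 CPM. The highest ADM library had 1.73 CPM of Tead4, from 12 counts, and the others at most 0.198 CPM. For Vgll2 the highest DMEM library had 0.0458 CPM, from 1 count, and the others none. The highest fresh Pdgfra+ library had 27.1 CPM of Yap1, and the others 23.5 to 24.1 CPM.

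The LM-like over EM-like difference of Vgll3 was greater at E16.5 than at E14.5 by 1.52 ± 0.46 on the log2 scale (adjusted p = 0.0443, edgeR's interaction of class and day over 8 sums). On 10× LM-like and EM-like cells had 33.1 and 94.9 CPM at E14.5 and 26.5 and 68.8 CPM at E16.5, and on Smart-seq2 35.7 and 207.5 CPM at E14.5 and 81.5 and 113.4 CPM at E16.5. The ratio of the classes moved between the days on Smart-seq2 and little on 10×, where the LM-like value at E16.5 rests on 2 counts. This difference between platforms was not tested.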

How the results depend on the processing

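Of the values that called members took under the alternatives, 43 of 52 kept their direction and their side of the threshold for LM-like against EM-like cells, 58 of 58 for EM-like against LP-like, 29 of 36 for DF-like against LP-like, 19 of 38 for ADM against DMEM, 77 of 80 for DMEM against fresh Pdgfra+ and 51 of 65 for Pdgfra-/Cd36+ against Pdgfra+ cells, and the rest lost the call in the same direction. All 32 for BA-like against LP-like cells stayed within their intervals. The causes of the changes that follow were not tested. Leaving out a pool was not run for NP-like against N-like cells, where no residual degrees of freedom remain, and the comparisons between Thy1 gates were not run.

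Shares of genes called are given in percent of the genes tested. With the Smart-seq2 sums split by sequence batch 22.1% (1607 genes of 7272 tested, 24.3% and 2473 before) and 2 members were called for LM-like against EM-like cells and 3.11% (10.5% before) for the days of EM-like cells. For NP-like against N-like cells edgeR then called none (6.98% before), with 1371 of 11900 genes at an unadjusted p under 0.05. In NP-like against N-like cells DESeq2 called 2 members, and RLE scaling and no filter 1 each, resolution 1.2 gave 5.33% of genes and 1 member, and removing doublets 10.6% and 3 members. In LP-like against EP-like cells DESeq2 called 11.0% of genes (5.64% before) and 2 members, and 71.6% of its calls were higher (84.1% before). There Tead3 (0.01) was -0.10 with DESeq2, -0.11 with RLE scaling, -0.04 without doublets and -0.26 split by batch, Tead4 (0.40) was -0.66 split by batch, and Tead1 (-5.5e-05) was 0.15 at resolution 0.4 and 0.01 at 1.2. In EM-like against LP-like cells Yap1 was -0.01 at resolution 0.4. DESeq2 called 6.92% of genes for the days of EM-like cells. RLE scaling moved the median of all genes by -0.12 in both LP-like against EP-like cells and the days of EM-like cells. The thinned shares of cells with a Vgll2 count were 41.7% in LM-like, 20% in EM-like and 0.868% in N-like cells on 10×, and 0 in N-like cells on Smart-seq2.

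For ADM against DMEM (9.16% of genes, 2 members) DESeq2 called 20.5%, RLE scaling 1 member, the libraries of the comparison alone 5.69% and 0 members, a term for the name sets 35.3% and 5 members, and no scaling 4.94% and 1 member, with Tead1 at -0.15 and Yap1 at -0.34. The replicate numbers of the labels did not pair the libraries (correlations of same-numbered ADM and DMEM deviations of -0.02, -0.13 and 0.003). With the replicate block edgeR called 0 genes and 0 members there (3032 of 12969 genes at an unadjusted p under 0.05), with Tead2 at -1.30 and Vgll4 at -0.70, and for Pdgfra-/Cd36+ against Pdgfra+ cells 39.2% of genes and 5 members (31.8% and 5 before). In DMEM against fresh cells Tead2 (0.00461) was -0.03 with DESeq2 and RLE scaling, -0.02 without the filter and -1.33 without scaling, where Tead4 (1.13) was -0.18. In Pdgfra-/Cd36+ against Pdgfra+ cells the term for the name sets gave 53.1% of genes, Tead1 (0.06) was -0.03, -0.03 and -0.21 with DESeq2, RLE and no scaling, and Yap1 (0.04) was -0.05, -0.05 and -0.23.

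Leaving out 1 pool gave 14.2 to 22.1% of genes, 2 to 4 members and Tead1 at -0.08 to 0.31 for LM-like against EM-like cells. It gave Tead1 at -0.01 to 0.49 and Vgll4 at -0.24 to 0.14 for EM-like against LP-like cells, and 6.92 to 17.2% of genes, 1 to 2 members and Vgll3 at -0.02 to 1.75 for DF-like against LP-like cells. LP-like against EP-like cells had 0 to 13.5% of genes (0 without Smart-seq2 of E12.5, with 634 of 11895 at an unadjusted p under 0.05), 0 to 1 members, Tead1 at -0.35 to 0.25 and Tead3 at -0.19 to 0.07. The days of EM-like cells had 0.759 to 12.2% of genes, 0 to 2 members, Tead3 at -0.56 to 0.22, Tead4 at -7.33 to 8.58, Vgll2 at -1.11 to 0.23, Vgll3 at -0.38 to 1.02, Vgll4 at -0.28 to 0.71 and Yap1 at -0.51 to 0.43. Leaving out 1 library gave 3.08 to 15.9% of genes and 0 to 3 members for ADM against DMEM, Tead2 at -0.14 to 0.31 for DMEM against fresh cells, and 11.2 to 27.9% of genes, 1 to 4 members, Tead1 at -0.06 to 0.15 and Yap1 at -0.05 to 0.09 for Pdgfra-/Cd36+ against Pdgfra+ cells. Low counts of Tead3 and Tead4 on 10× and 2 Cd36+ libraries limit what could be called.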

Other observations

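In ADM the libraries differed by the set of column names, which cannot be tied to a sort here. The 3 libraries of the first set had 2.86, 2.72 and 3.56 CPM of Tead2, and those of the second 10.1, 9.38 and 10.4 CPM. Vgll3 had 4.53, 4.39 and 5.34 CPM in the first set and 35.3, 43.6 and 20.2 CPM in the second. Wwtr1 ran the other way, with 47.02, 49.2 and 48.6 CPM against 26.5, 21.04 and 22.5 CPM. In DMEM Vgll3 had 14.3, 33.9 and 30.5 CPM in the first set and 91.3, 98.4 and 82.1 CPM in the second. For these genes the sets did not overlap. Nor did they for Tead1 and Tead3 in ADM and for Tead1, Tead2, Tead4 and Vgll4 in DMEM. The share of all genes for which the sets did not overlap was not computed, so this is not read as a trait of the members. The sets were not tested against each other.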
